A study of Mus musculus with 8 samples.

Results

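The enzymes of the pentose phosphate pathway studied here in mouse testis were listed by gene symbol, 5 in all, and 4 of them, Tkt, Taldo1, Pgd and G6pd2, were on the array, out of 8251 genes named there. They were represented by 5 of the array's 12422 probe sets, each a set of short probes against the same transcript. All 5 were bright enough to be tested, among 8874 tested in all. G6pdx, the X-linked glucose-6-phosphate dehydrogenase, had no probe set of its own in the array annotation and was not analysed here. The set was chosen by the low Tkt intensity in the ssp RNA, so the differences of Tkt against ssp are given as values without a test. Total RNA from testis was hybridised to 8 Affymetrix arrays in 4 groups of 2, labelled ssp, musculus, domesticus and castaneus after the words Mus musculus. The labels give every array as testis tissue and call the 2 arrays of a group technical replicates. They name no strain, age, treatment or number of animals, and do not spell out ssp. Whether those 2 arrays share an RNA extract is not given. Every p-value below therefore measures the spread between technical replicate arrays of a group, not between animals.

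The pentose phosphate pathway branches from glycolysis at glucose 6-phosphate. Its oxidative arm, run by glucose-6-phosphate dehydrogenase, a lactonase and phosphogluconate dehydrogenase, makes NADPH, which feeds glutathione reduction and the synthesis of lipids and steroids. Its non-oxidative arm, run by transketolase and transaldolase, exchanges carbon units between sugar phosphates and links ribose for nucleotides back to glycolysis. In the testis, X-linked genes are silenced during male meiosis, and several X-linked enzymes of sugar metabolism have autosomal copies that are used by germ cells. G6pd2 is such a copy of G6pdx, without introns.

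The promoters show how the copied gene differs from the other members. Below are the 250 bases before the annotated start of each measured gene, from RefSeq on build GRCm38.p6, the reference of the C57BL/6J strain and not of the mice on these arrays. Capitals mark matches, on either strand, to 4 motifs. The GC box, bound by Sp1-type factors, was searched as GGGCGG. The box bound by the factor NF-Y was searched by the letters of its name, CCAAT. The box that binds the TATA-binding protein at many regulated promoters was searched as TATAAA. The core of the antioxidant response element, bound by the oxidative stress factor NRF2, was searched as TGACNNNGC.
Tkt, chr14:30548881-30549130, plus strand: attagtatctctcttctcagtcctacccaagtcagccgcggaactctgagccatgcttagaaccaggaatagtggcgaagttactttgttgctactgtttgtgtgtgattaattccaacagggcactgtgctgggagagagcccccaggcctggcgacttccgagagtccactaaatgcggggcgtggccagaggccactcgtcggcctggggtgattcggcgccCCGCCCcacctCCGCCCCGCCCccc
Taldo1, chr7:141391910-141392159, plus strand: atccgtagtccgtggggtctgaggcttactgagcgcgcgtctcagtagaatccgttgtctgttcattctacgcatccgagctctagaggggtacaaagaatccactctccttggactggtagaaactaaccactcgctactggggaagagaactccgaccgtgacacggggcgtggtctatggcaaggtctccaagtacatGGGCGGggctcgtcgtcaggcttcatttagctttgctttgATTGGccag
Pgd, chr4:149166706-149166955, minus strand: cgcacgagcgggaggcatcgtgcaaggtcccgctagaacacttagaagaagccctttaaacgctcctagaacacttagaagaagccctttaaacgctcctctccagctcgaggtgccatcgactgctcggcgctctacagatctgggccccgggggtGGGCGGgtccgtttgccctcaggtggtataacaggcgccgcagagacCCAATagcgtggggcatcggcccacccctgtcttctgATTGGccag
G6pd2, chr5:61808593-61808842, plus strand: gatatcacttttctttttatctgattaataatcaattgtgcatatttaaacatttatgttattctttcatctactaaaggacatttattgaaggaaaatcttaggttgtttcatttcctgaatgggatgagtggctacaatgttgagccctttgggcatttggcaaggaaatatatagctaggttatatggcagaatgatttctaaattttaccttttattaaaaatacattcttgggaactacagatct
Tkt held 3 GC boxes, 25, 14 and 9 bases before its start, of which the last 2 overlap by 1 base. Taldo1 and Pgd each held 1 GC box, and both held a CCAAT box on the reverse strand whose first printed base lies 9 bases before the start. Pgd held a second CCAAT box 46 bases before its start. G6pd2 held none of the 4 motifs, and 30.0% of its window was G or C, against 59.6% for Tkt, 54.4% for Taldo1, 60.4% for Pgd and a median of 52.4% over 32851 promoter windows. Of those windows, 32.7% held a GC box, 33.8% a CCAAT box, 12.4% a TATA box and 10.2% the antioxidant core. None of the 4 measured members matched the antioxidant core or the TATA box in these windows, whereas the G6pdx window held the antioxidant core once, 57 bases before its start.

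The start of G6pd2 still carries sequence of its X-linked parent. RefSeq's stretch around each start also runs on into the transcript, past the windows printed above. The longest run of bases that these stretches of both genes share begins 10 bases before the annotated start of G6pd2 and 15 bases after that of G6pdx, and is shown because it ties the pair together.
G6pd2 and G6pdx shared run: CTACAGATCTGTGAACGTGTTTGGCAG
The run is 27 bases long. Probes against the G6pd2 transcript may also bind that of G6pdx, and how much of the G6pd2 signal comes from G6pdx was not tested.

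Tkt, transketolase of the non-oxidative arm, read 69.8 and 71.8 intensity units on the ssp arrays, 1241.7 and 1601.8 on the musculus arrays, 483.8 and 463.1 on the domesticus arrays, and 609.3 and 567.7 on the castaneus arrays. The ssp arrays were lowest and the musculus arrays highest, and no group overlapped another. Such a complete separation of all 4 groups was met by 3.05% of the probe sets tested (271 of 8874), and 5.17% had both ssp arrays below the other 6, a property that chose Tkt. Replicate arrays of Tkt lay close together, with an SD of 0.029 log2 in ssp, 0.26 in musculus, 0.045 in domesticus and 0.072 in castaneus (n = 2 arrays each). Tkt had a single probe set, so no other probe set was at hand to compare with it. Whether the probes match the transcript of every group equally well was not tested, for Tkt or for any other gene. In bulk tissue, fewer cells of a type and less RNA per cell cannot be told apart.

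In geometric means, Tkt was at 70.79 in ssp, 1410 in musculus, 473.3 in domesticus and 588.1 in castaneus. As a description, it was 19.9-fold lower in ssp than in musculus, 6.69-fold lower than in domesticus and 8.31-fold lower than in castaneus. The span of its group means, 4.32 on the log2 scale, ranked 25th among the 8874 probe sets tested. Over the whole array 0.609% of probe sets were called lower in ssp than in musculus, 0.462% lower than in domesticus and 0.192% lower than in castaneus. A call here is an adjusted p under 0.05 by limma with at least a 2-fold difference.

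Apart from ssp, Tkt differed most between musculus and the other groups. It was 2.98-fold higher in musculus than in domesticus, a log2 difference of 1.58 (SE 0.25, 95% interval 0.98 to 2.17), without passing limma's threshold (adjusted p = 0.0612, unadjusted p = 0.000534). It was 2.40-fold higher in musculus than in castaneus, a log2 difference of 1.26 (SE 0.25, 95% interval 0.67 to 1.85), also without passing by limma (adjusted p = 0.0864). Both differences passed with a stricter filter on dim probe sets (limma, adjusted p = 0.0198 and 0.0307) and with a trended, robust variance model (limma, adjusted p = 0.0184 and 0.0421). Neither passed under the other settings that kept 2 arrays per group. Adjusted p by limma was 0.106 and 0.167 with median centring, and 0.185 and 0.231 with the pair's own 4 arrays fitted. Domesticus and castaneus, neighbours in the order of levels, differed by -0.31 log2 (95% interval -0.91 to 0.28, limma adjusted p = 0.737), within the spread of the fit although their arrays did not overlap. Between 0.316% and 0.496% of all probe sets were called higher in musculus than in domesticus or castaneus, the first share being that against domesticus.

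**Figure D1:**
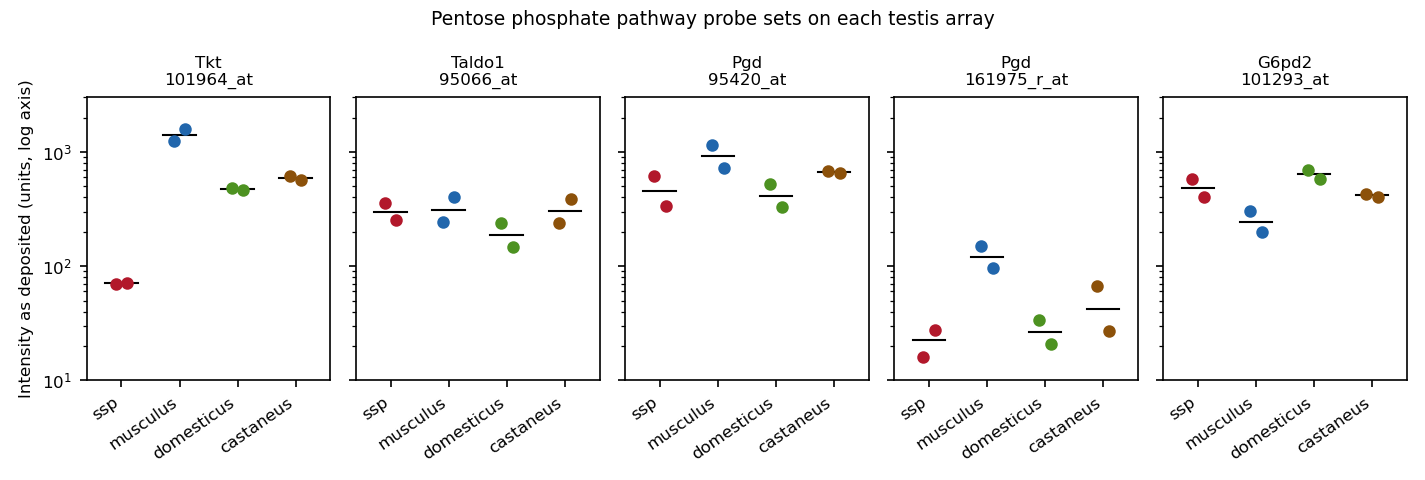
Intensity as deposited (vertical log axis) of the 5 pentose phosphate pathway probe sets on each testis array, with 2 points per group and a line at the geometric mean. Tkt separates all 4 groups, from 69.8 on an ssp array to 1601.8 on a musculus array, while Taldo1 stays between 148.3 and 404.4.

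Taldo1, transaldolase and the partner of transketolase in the same arm, did not share that pattern. It read 354.3 and 255.1 in ssp, 241.5 and 404.4 in musculus, 239.2 and 148.3 in domesticus, and 240.7 and 385.6 in castaneus. The ssp, musculus and castaneus arrays overlapped, and both domesticus arrays lay below the other 6, as they did for 5.52% of probe sets. Its group means spanned 1.66-fold (limma F test, adjusted p = 0.665). The difference between ssp and musculus was -0.06 log2, with a 95% interval of -1.09 to 0.98, which leaves room for about a 2-fold change either way. The interval for ssp minus castaneus was -1.05 to 1.02 and that for ssp minus domesticus -0.36 to 1.71.

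Pgd, phosphogluconate dehydrogenase, which makes NADPH in the oxidative arm, was highest in musculus by both of its probe sets. The brighter read 611.8 and 334.2 in ssp, 1143.2 and 728.3 in musculus, 518.9 and 330.0 in domesticus, and 685.1 and 651.1 in castaneus. The musculus arrays lay above the other 6, as they did for 6.37% of probe sets, while ssp and domesticus overlapped. Its group means spanned 2.21-fold (limma F test, adjusted p = 0.418). The largest pair difference was 1.14 log2 for musculus minus domesticus (95% interval 0.13 to 2.15, limma adjusted p = 0.344). Ssp minus musculus was -1.01 (95% interval -2.02 to -0.0011, limma adjusted p = 0.374).

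The dimmer Pgd probe set read 16.1 and 27.4 in ssp, 148.6 and 96.9 in musculus, 33.8 and 20.7 in domesticus, and 66.6 and 26.8 in castaneus. Again the musculus arrays stood above all others, and those of the other 3 groups overlapped. This probe set was bright enough to be tested only through its musculus arrays. Being high in musculus was thus a condition of its test, and its tests are no support for that difference. The letter r in its identifier marks, in the manufacturer's naming, a probe set that met fewer of the usual selection rules, and 1 ssp array lay below the floor of 18.7 to which low values were raised. Its span of 2.41 log2 therefore depends on that floor, and was 1.67 log2 with the floor at the 20th percentile. It did not pass at either floor (limma F test, adjusted p = 0.173 and 0.131), nor did its difference of 2.18 log2 for musculus minus domesticus (95% interval 0.91 to 3.45, limma adjusted p = 0.169). Ssp minus musculus was -2.41 (95% interval -3.68 to -1.13, limma adjusted p = 0.124). By this probe set the order from high to low was musculus, castaneus, domesticus, ssp, the order of Tkt, whereas by the brighter ssp and domesticus changed places within their overlap.

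G6pd2, the autosomal glucose-6-phosphate dehydrogenase copy that opens the oxidative arm, ran the other way and was lowest in musculus. It read 581.2 and 399.1 in ssp, 301.9 and 199.2 in musculus, 688.8 and 584.7 in domesticus, and 432.2 and 404.0 in castaneus. Both musculus arrays lay below the other 6 and both domesticus arrays above them, while ssp and castaneus overlapped. Over the array, 6.68% of probe sets had both musculus arrays below the others and 6.13% had both domesticus arrays above them. The group means spanned 2.59-fold without passing (limma F test, adjusted p = 0.233, unadjusted p = 0.0248). Musculus minus domesticus was -1.37 log2 (SE 0.32, 95% interval -2.15 to -0.59, limma adjusted p = 0.162). Ssp minus musculus was 0.97 (95% interval 0.19 to 1.76, limma adjusted p = 0.271), opposite in sign to the same difference for Tkt and Pgd.

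Of the 4 probe sets of Taldo1, Pgd and G6pd2, 0 differed among the groups by limma's F test, against 1.76% of all probe sets tested (156 of 8874). At an unadjusted p under 0.05 the count was 2 of 4, the dimmer Pgd probe set and G6pd2, against 15.9% of all probe sets. The dimmer Pgd probe set entered the test only through its musculus arrays. Its part in this count and in the pair counts below is therefore no support. In the pairs of groups limma called 0 of these 4 for ssp against each other group, and 0 of the 5 including Tkt for each of the other 3 pairs. The unadjusted counts were 3 of 4 for ssp minus musculus, 4 of 5 for musculus minus domesticus, 2 of 5 for musculus minus castaneus and 0 for the other pairs, where 13.3%, 12.2% and 13.5% of all probe sets fell under that limit in the first 3. Calls in either direction over all probe sets were 0.98% for ssp and musculus, 0.687% for ssp and domesticus, 0.349% for ssp and castaneus, 0.744% for musculus and domesticus, 0.947% for musculus and castaneus and 0.676% for domesticus and castaneus.

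Musculus was thus the group in which most members stood at an extreme. Both musculus arrays lay above the other 6 for 3 of the 5 member probe sets, those of Tkt and Pgd, and below them for 1, that of G6pd2. Over all probe sets tested, 6.37% had both musculus arrays above and 6.68% had both below. The 2 Pgd probe sets report the same gene and count as 1 member. The dimmer was bright enough to be tested only through its musculus arrays, so its place above the other 6 adds no support.

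**Figure D2:**
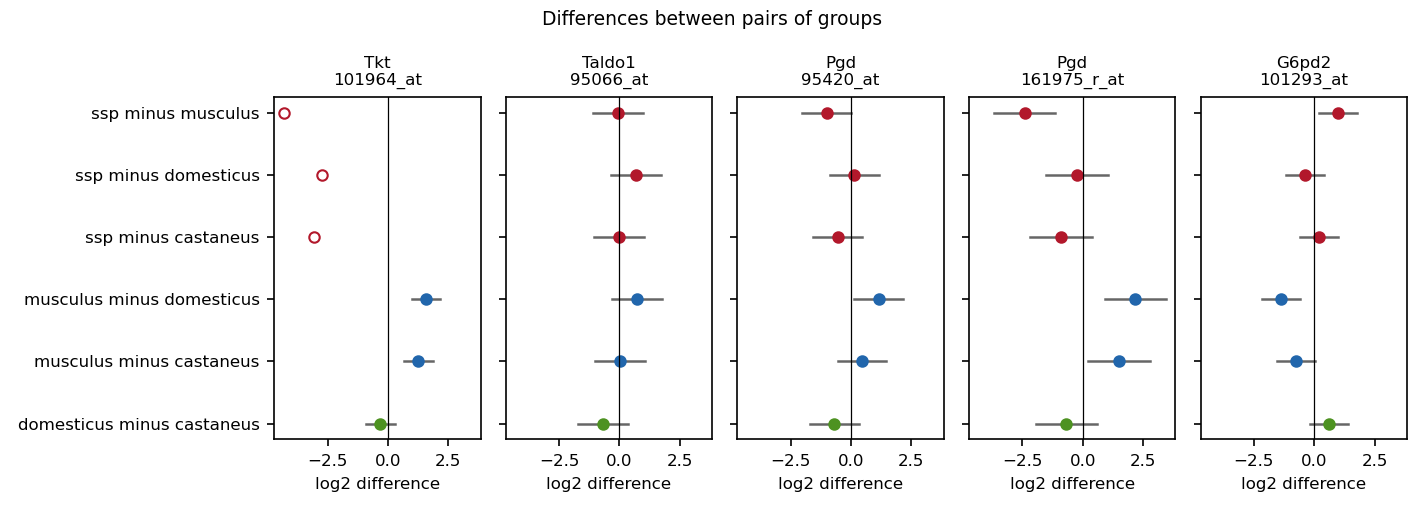
Log2 differences between pairs of groups (horizontal axis) for the 5 member probe sets, with filled points and bars for limma's estimate and 95% interval. Open points, without intervals, are the Tkt differences against ssp that chose the set, and run from -4.32 to -2.74, and the G6pd2 points lie on the other side of 0 from those of the brighter Pgd probe set, with musculus minus domesticus at -1.37 for G6pd2 and 1.14 for the brighter Pgd probe set.

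The remaining genes of the pathway gave no call. Of 10 listed, 7 were on the array and 6 were tested, and 0 were called by limma's F test or in any pair, with 0 at an unadjusted p under 0.05. Over all probe sets tested, 1.76% were called by the F test and 0.349% to 0.98% in a pair. An unadjusted p under 0.05 was met by 15.9%, so a count of 0 among 6 says little. Their median span was 0.42 log2, against 0.81 over all probe sets tested. Pgls, the lactonase between the oxidative steps, had group means of 1491 in ssp, 1634 in musculus, 1753 in domesticus and 1897 in castaneus. H6pd, which runs the oxidative steps inside the endoplasmic reticulum, had means of 1660, 1545, 1348 and 1613 in the same order of groups, and Rpia, the ribose phosphate isomerase, 794.2, 845.9, 737.9 and 788.1. Rpe, the ribulose phosphate epimerase, spanned 1.42-fold and Rbks, ribokinase, 2.31-fold. Pgm2, a phosphopentomutase, was too dim to be tested.

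Tktl1, an X-linked relative of Tkt expressed in testis, read 70.8 and 289.7 in ssp, 49.6 and 71.2 in musculus, 86.5 and 159.1 in domesticus, and 141.0 and 187.3 in castaneus. The 2 ssp arrays differed more from each other than the group means did, and the ssp range overlapped those of all other groups (limma F test, adjusted p = 0.586). Unlike Tkt, its lowest group mean was that of musculus, 59.43, against 143.2 in ssp.

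The other sources of NADPH also varied without a call. Of 9 listed genes 5 were on the array and tested. Against 15.9% of all probe sets, 3 of these 5 had an unadjusted p under 0.05. Limma's F test called 0 of the 5, against 1.76% of all probe sets. With the trended, robust variance model, 1 of them was called, where over the array 383 of 8874 were called, against 156 in the main fit. Their median span was 1.5 log2. Idh1, the cytosolic isocitrate dehydrogenase, had means of 288 in ssp, 813 in musculus, 447.6 in domesticus and 328.4 in castaneus (limma F test, adjusted p = 0.210). Both its musculus arrays lay above the other 6, as for 6.37% of all probe sets. Me1, cytosolic malic enzyme, had means of 2992 in ssp, 1102 in musculus, 4194 in domesticus and 1524 in castaneus (adjusted p = 0.126), and was lowest in musculus like G6pd2. Nnt, the mitochondrial transhydrogenase, was at 1071, 1112, 649.1 and 1454 in that order of groups (adjusted p = 0.199).

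The users of the pathway's products and neighbouring glycolysis gave no call either. Among genes that use or make activated ribose, 9 probe sets of 8 genes were tested and 0 were called by the F test, with 1 at an unadjusted p under 0.05 and a median span of 0.98 log2. That 1 was Prpsap1, a regulatory partner of phosphoribosyl pyrophosphate synthetase, at 409.5 in ssp, 244.1 in musculus, 869.1 in domesticus and 841.4 in castaneus (adjusted p = 0.0961). With the stricter filter, and with the trended, robust variance model, 1 probe set of these genes was called. Over the array these settings called 309 and 383 probe sets, against 156 in the main fit. Of 16 probe sets of 13 genes of glutathione and thioredoxin defence, 0 were called and 3 had an unadjusted p under 0.05, with a median span of 0.90 log2. Over all probe sets tested, 1.76% were called and 15.9% had an unadjusted p under 0.05. Of 24 probe sets of 20 glycolysis genes, 0 were called and 1, that of the phosphoglycerate mutase Pgam1, had an unadjusted p under 0.05, with a median span of 0.54 log2. Pgam1 was at 686.2 in ssp, 1405 in musculus, 767.2 in domesticus and 1066 in castaneus (adjusted p = 0.184), in the same order of groups as Tkt.

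**Figure D3:**
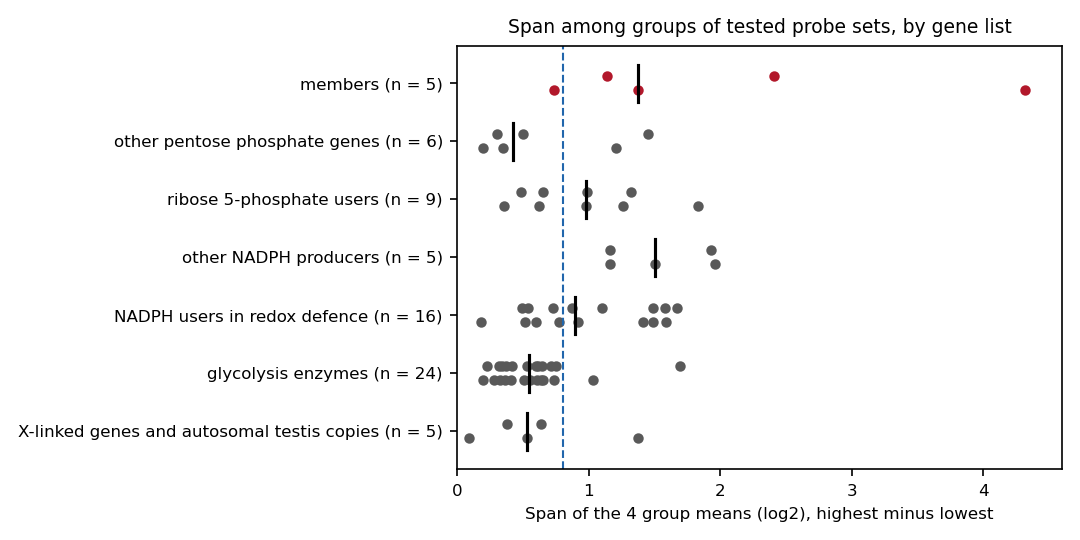
Span of the 4 group means on the log2 scale (horizontal axis), highest minus lowest, for each tested probe set of the members and of 6 related gene lists, with a bar at each list's median. The dashed line is the median over all 8874 probe sets tested, 0.81, and the Tkt point at 4.32 lies apart from every other point, having been chosen for its low ssp value.

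Other X-linked enzymes and their autosomal testis copies were set beside G6pd2, and none was called either, against 1.76% of all probe sets tested. Pgk2, the germ cell phosphoglycerate kinase, had means of 4887 in ssp, 3295 in musculus, 3957 in domesticus and 5129 in castaneus (limma F test, adjusted p = 0.450). Both its musculus arrays lay below the other 6, as for G6pd2 and for 6.68% of all probe sets tested. Pgk1, the X-linked parent of Pgk2, was at 527.7 in ssp, 763.2 in musculus, 548.9 in domesticus and 533.5 in castaneus (limma F test, adjusted p = 0.772). Pdha2, the germ cell form of a pyruvate dehydrogenase subunit, spanned 1.07-fold and its X-linked parent Pdha1 1.30-fold, with adjusted p of 0.997 and 0.931 by limma's F test.

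Markers of testis cell types were measured beside the members. Spermatid markers, 9 of 9 on the array, summed to 319300 to 374600 in ssp, 234100 to 293600 in musculus, 256900 to 268700 in domesticus and 289400 to 350400 in castaneus, so germ cell transcripts of testis were bright on all arrays. Leydig cells, which make testosterone and use NADPH in steroid synthesis, had markers that were brightest in musculus in sum. The markers, 7 of 8 on the array, summed to 3067 to 3378 in ssp, 13680 to 14460 in musculus, 4714 to 4810 in domesticus and 4220 to 5575 in castaneus. Cyp17a1, at 8656.3 and 9709.0 on the musculus arrays, made up most of the musculus sums. Both musculus arrays were above the other 6 for 5 of these 7, both ssp arrays were below for 3 of 7, and limma's F test called 2 of 7, Cyp17a1 and Star. Over all probe sets tested these shares were 6.37%, 5.17% and 1.76%. These counts take the brightest probe set of each gene, and none of those 7 was at the floor on any array. Cyp17a1, of androgen synthesis, had means of 1698 in ssp, 9168 in musculus, 2562 in domesticus and 3220 in castaneus, in the same order of groups as Tkt. Its second, dimmer probe set did not follow, with means of 147.3 in ssp, 102.2 in musculus, 172 in domesticus and 160.5 in castaneus.

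Star, the carrier of cholesterol into mitochondria, had means of 119.5 in ssp, 607.2 in musculus, 392.2 in domesticus and 190 in castaneus by its brighter probe set, and 142.3, 152.8, 140.9 and 139.5 in that order by its dimmer one. Cyp11a1, which opens steroid synthesis, was lowest in castaneus, at 268.3, and read 529.2 in ssp, 1730 in musculus and 638.1 in domesticus. Hsd3b6 had its highest mean in domesticus, 321.1, and Insl3 in ssp, 149.7. Erythroid markers, 3 of 6 on the array, summed to 1749 to 5568 in ssp, 14000 to 17710 in musculus, 1576 to 3171 in domesticus and 2022 to 5506 in castaneus. Hba-a1, a globin gene, made up most of these sums, and Slc4a1, the anion exchanger of red cells, was the 1 of 3 that limma's F test called (adjusted p = 0.0324), with its highest mean in ssp, 142.6, against 28.03 in musculus. Over all probe sets tested that F test called 1.76%. Macrophage markers, 5 of 6 on the array, summed to 940.7 to 1772 in ssp, 1572 to 2164 in musculus, 1435 to 1521 in domesticus and 1005 to 1167 in castaneus. Their musculus and ssp sums overlapped. Limma's F test called 0 of 4 tested, with 1, that of Lyz2, at an unadjusted p under 0.05, against 15.9% of all probe sets. These sums take the brighter Csf1r probe set. The dimmer one separated as Tkt did at both ends, at 225.9 and 187.7 in ssp, 653.2 and 589.6 in musculus, 275.5 and 379.3 in domesticus, and 242.6 and 300.6 in castaneus (limma F test, adjusted p = 0.123, unadjusted p = 0.00571). Cd68 likewise had its lowest mean in ssp, 119.5, and its highest in musculus, 309.9 (limma F test, adjusted p = 0.335). The brighter Csf1r probe set had means of 622.4 in ssp, 630.4 in musculus, 531.2 in domesticus and 540.3 in castaneus. By the brightest probe set of each gene, all 5 had their highest mean in musculus. For Adgre1, too dim to be tested, this rests on 1 musculus array at 96.0, the other lying below the floor. Lyz2 was at 302.7 in musculus and 301.9 in domesticus, nearly equal, as Csf1r was in musculus and ssp. The lowest mean was in ssp for 1 of the 5 and in castaneus for 3.

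Sertoli cell markers, 7 of 8 on the array, summed to 7267 to 8885 in ssp, 8933 to 9468 in musculus, 9091 to 9868 in domesticus and 9081 to 9293 in castaneus, so that both ssp sums were the lowest. Clu, at 4807.6 to 7061.6 over the arrays, made up most of these sums. By gene, 2 of the 7 had their lowest mean in ssp and 2 of the 7 their highest there. Spermatogonia markers, 6 of 6 on the array, overlapped in sum among all groups, at 5228 to 8755 in ssp, 5322 to 8864 in musculus, 5476 to 7860 in domesticus and 3196 to 6495 in castaneus. Among them Kit had means of 166.1 in ssp, 466.6 in musculus, 279.8 in domesticus and 211.9 in castaneus (limma F test, adjusted p = 0.148). Stra8 had means of 25.27, 153.7, 109.5 and 134.9 in that order of groups (adjusted p = 0.131), so both were lowest in ssp and highest in musculus. The rest of the list did not share this. By the brightest probe set of each gene, 3 of the 6, Ddx4, Dmrt1 and Zbtb16, had their highest mean in ssp. Their ssp means were 4032, 446.7 and 192.5, against 3971, 392 and 144.6 in musculus. Spermatocyte markers, 6 of 7 on the array, summed to 53190 to 60200 in ssp, 46520 to 48170 in musculus, 43860 to 44800 in domesticus and 52440 to 62480 in castaneus. Limma's F test called 0 of the tested markers in the Sertoli, spermatogonia, spermatocyte and spermatid lists, with 4 at an unadjusted p under 0.05, those of Kit, Stra8, the spermatogonial Ddx4 and the spermatocyte Hspa2. Tested in these lists were 7 Sertoli, 6 spermatogonia, 5 spermatocyte and 9 spermatid markers. Over all probe sets tested, 1.76% were called and 15.9% had an unadjusted p under 0.05.

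Striated muscle markers, 7 of 7 on the array, summed to 1188 to 1297 in ssp, 1271 to 1329 in musculus, 450.5 to 686 in domesticus and 895.3 to 921.2 in castaneus. Limma's F test called 2 of the 5 tested, against 1.76% of all probe sets tested. Myh7, a myosin heavy chain, had means of 66.51 in ssp, 789.6 in musculus, 166.5 in domesticus and 44.98 in castaneus by the called probe set (limma F test, adjusted p = 0.0099). It was highest in musculus like Tkt, but lowest in castaneus. Its suffix marks probes shared within a gene family. The other tested Myh7 probe set had means of 102.2, 96.05, 129 and 118.2 in that order of groups (limma F test, adjusted p = 0.975). Tnnc1, a troponin subunit, had means of 502.8 in ssp and 358.1 in castaneus (adjusted p = 0.00582), while both its musculus arrays were at the floor. Adipocyte markers, 4 of 6 on the array, summed to 1184 to 1465 in ssp, 633 to 691.3 in musculus, 685.8 to 800.9 in domesticus and 232.7 to 569.6 in castaneus. Adipoq, the adipocyte hormone adiponectin, was the 1 of 3 tested that was called, at 927.6 in ssp, 455.3 in musculus, 622 in domesticus and 154 in castaneus (adjusted p = 0.0468). Smooth muscle markers, 5 of 5 on the array, summed to 1338 to 2287 in ssp, 1339 to 1670 in musculus, 1186 to 1445 in domesticus and 1279 to 1536 in castaneus. Epididymis markers, 3 of 5 on the array, summed to 167.1 to 257.9, 170.2 to 184.2, 179 to 201.2 and 72.8 to 358.9 in that order of groups. The part of any of these cell types in the levels of Tkt, Pgd or G6pd2 was not tested.

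**Figure D4:**
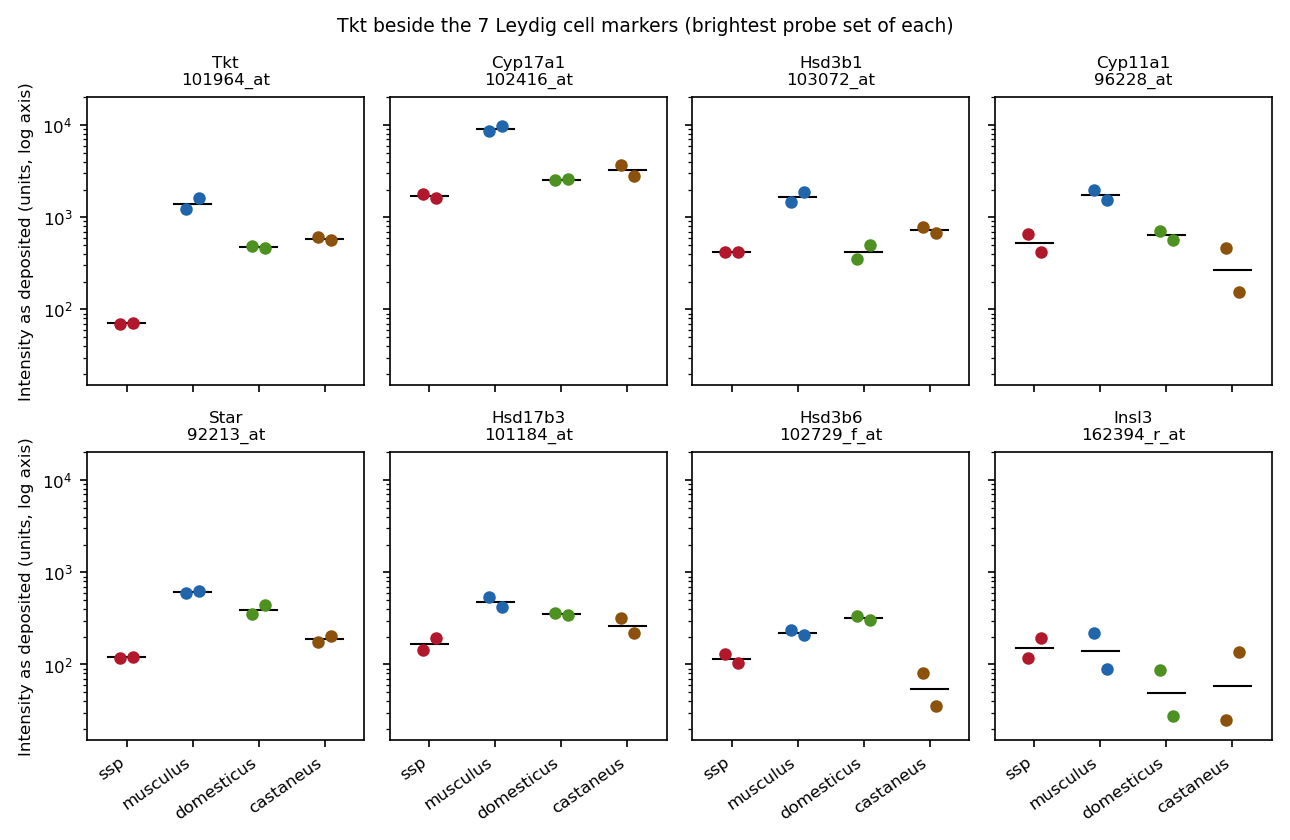
Intensity as deposited (vertical log axis) of Tkt and of the brightest probe set of each of the 7 Leydig cell markers, with 2 points per group and a line at the geometric mean. For Tkt and 5 of the 7 markers both musculus arrays lie above the other 6, and for Tkt and 3 of the 7 both ssp arrays lie below them.

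The genes most like each member were found by Pearson's r of log2 intensity over the 8 arrays, among 7945 tested probe sets with a gene name. The arrays come from only 4 groups of technical replicates, so a high r describes these arrays. Closest to Tkt were Cpsf2, of mRNA polyadenylation (r = 0.98), the histone deacetylase Hdac5 (0.966), Ahcyl1 (0.965), the small GTPase Arf1 (0.965) and Tox4 (0.964). Their changes were smaller: Cpsf2 had means of 154.7 in ssp, 375.5 in musculus, 254.5 in domesticus and 286.9 in castaneus, and Tox4, by a probe set whose suffix marks probes shared within a gene family, 279.4, 947.7, 671.1 and 785.5 in that order. Closest to the brighter Pgd probe set were Cbx6 (0.97), Alg2 (0.921), Dmrtb1 (0.92), the protease Furin (0.92) and Sac3d1 (0.919).

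Taldo1 was most like the small GTPase Rab8b (0.939), Dock9 (0.936), Fnbp1 (0.927), the calcium-binding S100a4 (0.921) and the stress transcription factor Atf4 (0.9). G6pd2 was most like the RNA methyltransferase Nsun2 (0.961), the proteoglycan Epyc (0.957), Prkag1, a subunit of AMP-activated kinase (0.955), Lypla1 (0.955) and Blmh (0.941). Nsun2 had means of 2549 in ssp, 1313 in musculus, 2724 in domesticus and 2145 in castaneus. None of these 20 genes was called by limma's F test. No member was among the 5 most like another. Between members, r was 0.74 and 0.576 for Tkt with the dimmer and brighter Pgd probe sets, 0.0082 for Tkt with Taldo1 and -0.532 for Tkt with G6pd2, and 0.765 between the 2 Pgd probe sets.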

How the data were processed

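Testis RNA on 8 Affymetrix arrays was analysed. The deposited intensities are linear, 1 per probe set and array, and per the values already scaled: the mean after trimming 2% at each end was 495.6 to 496.7 on all arrays, and array medians were 151.2 to 182.6. How the authors summarised and scaled the probes is not given in these sources. Values under the 10th percentile (18.7) were raised to it and log2 was taken. Probe sets at or above their array's 40th percentile on at least 2 arrays were tested. Group values are geometric means.

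Limma 3.58.1 in R 4.3.3 fitted 4 group means over all 8 arrays, with 4 residual and 2.34 prior degrees of freedom. Calls by the F test and in the 6 pairs needed a Benjamini-Hochberg adjusted p under 0.05 over all probe sets and at least 1 log2 of difference. The fit was tested on simulated data. The number of arrays limits the precision.

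Symbols came from the platform annotation, updated by gene number to RefSeq of GRCm38.p6: 10833 probe sets had 1 symbol, 396 several and 1193 none, and 10817 matched. Members and lists were chosen with earlier results of these data known. Named are all member probe sets, listed genes with a call, the gene copies and transketolase relatives, and the 5 genes most like each member; Pgls, H6pd, Rpia, Rpe, Rbks, Idh1, Me1, Nnt, Prpsap1, Pgam1 and the marker genes were named after their values were seen. No array pair was identical. Alternatives changed the floor, filter, scaling, variance model, arrays fitted and replicate block.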

Additional observations from a re-analysis of the deposited data

How the results depend on the processing

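Every Tkt difference kept its sign under the settings run, and limma's F test called 0 of the other member probe sets under each that ran it, the dimmer Pgd probe set not being tested with the filter at the 60th percentile. With the filter at the 60th percentile and with a trended, robust variance model the Tkt differences of 1.58 (musculus minus domesticus) and 1.26 (musculus minus castaneus) passed. They did not pass under the other settings that kept 2 arrays per group. Median centring and quantile normalization each gave -3.19 for ssp minus castaneus of Tkt, against -3.05 in the main fit. Leaving out 1 array gave Tkt ssp minus musculus between -4.50 and -4.13, the ends being without musculus replicate 1 and 2, ssp minus domesticus between -2.77 and -2.71, ssp minus castaneus between -3.11 and -3.00, musculus minus domesticus between 1.39 and 1.76, musculus minus castaneus between 1.08 and 1.45, and domesticus minus castaneus between -0.36 and -0.26.

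Counts over the array moved with the fit, and the cause was not tested. In the order F test, then ssp minus musculus, ssp minus domesticus, ssp minus castaneus, musculus minus domesticus, musculus minus castaneus and domesticus minus castaneus, they were 156, 87, 61, 31, 66, 84 and 60. They were 31, 28, 21, 8, 29, 32 and 4 with no filter, 309, 146, 130, 79, 129, 185 and 128 with the filter at the 60th percentile, and 383, 196, 153, 87, 175, 223 and 167 with the trended, robust variance. A floor at the 20th percentile gave 98 for ssp minus domesticus and 95 for domesticus minus castaneus, and median centring 20 for ssp minus castaneus and 36 for domesticus minus castaneus. Limma called 0 in each of the 6 pairs when just its own 4 arrays were fitted. Leaving out any of the 8 arrays lowered the F test count by over 1.5 times, to 7 to 43, and the pairs 0 to 27, 0 to 18, 0 to 8, 0 to 49, 0 to 57 and 0 to 18, lowest for the F test without castaneus replicate 1 and highest without ssp replicate 1.

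With the replicate block, the F test called 42 and the pairs 29 for ssp minus musculus, 22 for ssp minus domesticus, 6 for ssp minus castaneus, 43 for musculus minus domesticus and 8 for domesticus minus castaneus. Deviations of same-numbered arrays correlated at 0.0263 to 0.171, over 0.1 in 4 of 6 pairs of groups. Pairing was accepted only if all 6 passed 0.1, so the numbers were not taken to pair the arrays. Even so, replicate 1 was above replicate 2 in all 4 groups for G6pd2 and the brighter Pgd probe set, whose adjusted p with the replicate block were 0.154 and 0.212 by limma's F test.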
